A study of Mus musculus with 4 samples.

Results

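The thymus of a wild-type, untreated mouse embryo at stage E16.5 was described from 50 spots of a spatial transcriptome. A spot is a barcoded patch of a Visium slide that captures RNA from the several cells above it, and each captured molecule is counted once as a unique molecular identifier (UMI). Spots over tissue with at least 500 UMIs were kept. Each was scored by the mean over Cd3d, Cd8a, Rag1 and Cd3g of the natural log of 1 plus UMIs per 10000, and the 50 highest of 3588 kept spots were taken as thymus spots. The remaining kept spots of the same section were set beside them and are called other kept spots. The series holds 4 sections of WT mice cut at 8 µm, with 7435 kept spots in all: mouse embryo tissue at E13.5 and at E16.5, 1 section each, and esophagus at birth (P0), 2 sections. By its title the series is about Lgr5 in the developing esophagus, and the thymus lay within the embryo section. Which animal each section came from was not given in the sources used here. E16.5 is 1 section, so no difference below has a replicate check or a p-value, and each is a description of these spots. The 50 spots share that section and are not replicates of a condition.

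In the thymus, progenitors from the blood are turned into T cells by contact with epithelial cells. Epithelial chemokines draw the progenitors in, Notch ligands commit them to the T lineage, and the Rag enzymes then cut and join the T cell receptor (TCR) genes. Thymocytes with a working beta or gamma-delta receptor pass on, and those of the alpha-beta lineage divide and display both CD4 and CD8. Cortical epithelium tests these cells with peptides on major histocompatibility complex (MHC) molecules, and medullary epithelium later removes self-reactive ones.

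The 4 selecting genes are given as a description of the rule alone. Scores ran from 2.47 in the highest spot through 2.03 at rank 25 to 1.829 at rank 50, and the nearest spots outside had 1.825 at rank 51 and 1.819 at rank 52. The limit therefore fell on a continuous slope, with 1.67 at rank 80 and 1.07 at rank 150. Rag1, which makes the cuts in receptor genes, stood at 208, 730 and 2955 UMIs per 1000000 UMIs of a spot (CPM) in the lowest, median and highest thymus spot, and at a median of 0 CPM in other kept spots. Cd3g had no UMI in 1 of the 50 spots, and each of the other 3 genes had at least 1 UMI in every thymus spot.

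Genes that the rule did not use also marked the spots as thymus. The other TCR and CD3 genes with Rag2, the preTCR chain and terminal transferase formed a list of 8. Summed over the list, the thymus spots held 6439 CPM (95% Poisson interval 6211 to 6673), against 139 CPM (137 to 142) in other kept spots, a ratio of 46.2 (44.4 to 48.1). The lowest, median and highest thymus spot had 3784, 6504 and 10937 CPM for this list, and the median of the other spots was 0 CPM. Of the other spots 44 reached the lowest thymus value and 10 the thymus median, and all of these lay within 3 grid steps of a thymus spot. The defining markers of the neighbouring endocrine glands were at or near 0. Parathyroid genes (Pth, Gcm2, Casr and Chga) had 0 UMIs in the thymus spots, which at a floor of 3 counts over the group allows up to 6.42 CPM. In other kept spots Chga made up 54.85 of the 54.88 CPM of that list, so Pth, Gcm2 and Casr were near 0 there too. The 0 of Pth, Gcm2 and Casr therefore does not set the thymus spots apart. The thyroid list had 9 UMIs in all, 8 of them for Tg, which encodes thyroglobulin. Intervals here and below cover counting error only.

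The position of a spot was not part of the rule. All 50 spots lay in rows 50 to 60 and columns 75 to 101 of a grid whose kept spots spanned rows 0 to 77 and columns 3 to 127. They formed 3 groups of touching spots with 34, 14 and 2 members, so the largest group held 68% of them. Each had at least 1 thymus spot among its 6 neighbours and the median had 3. No thymus spot was surrounded by thymus spots on all 6 sides. Taking the 80 highest spots instead joined all of them into 1 group (100%), and taking 30 left 33.3% in the largest.

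**Figure D1:**
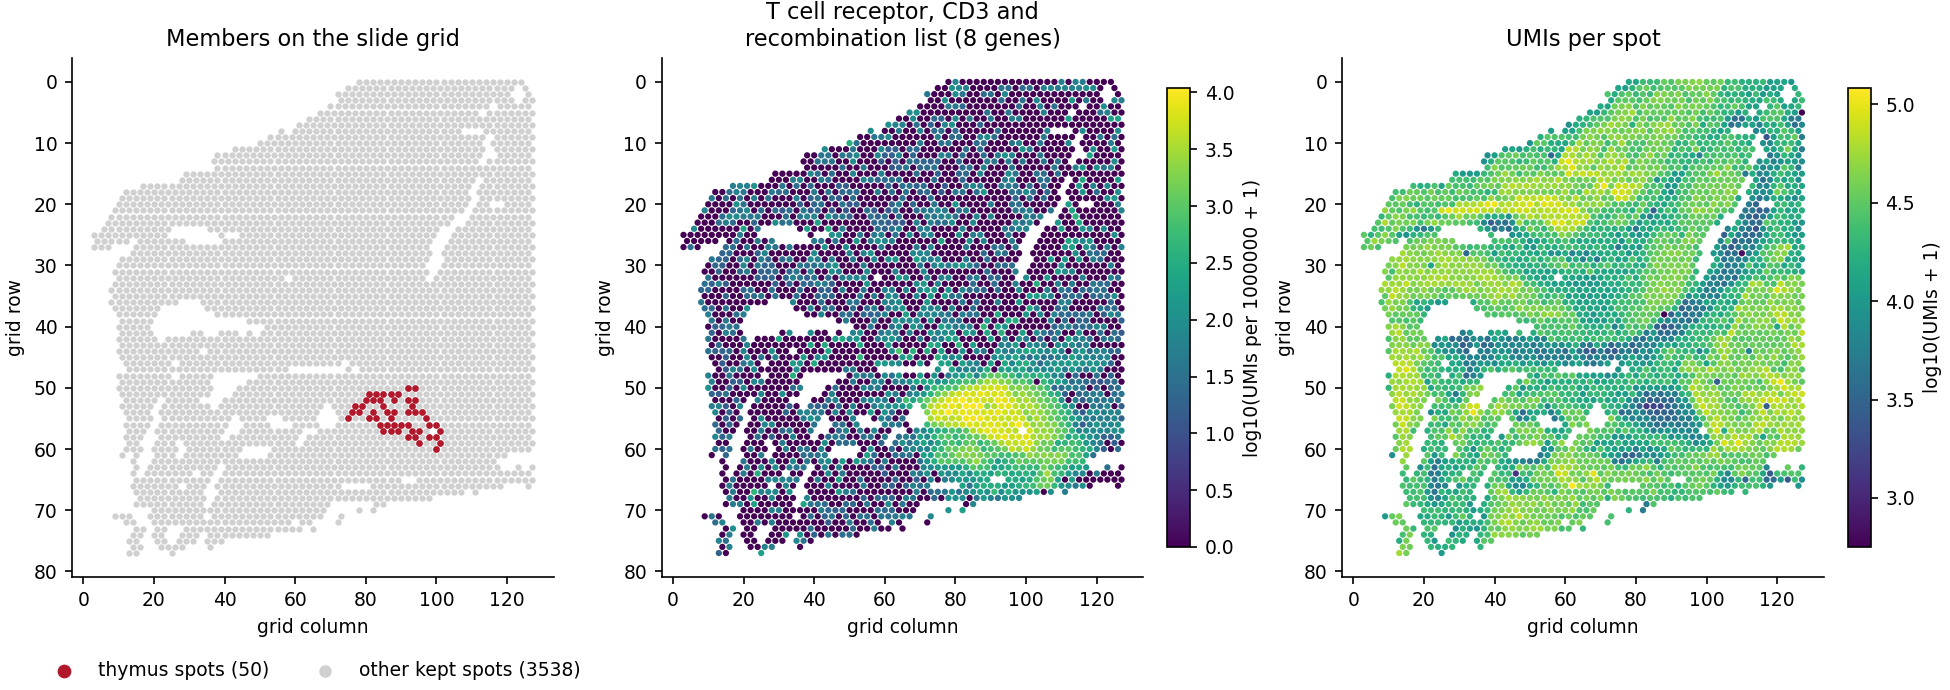
Maps of the E16.5 section by grid column and grid row, each point a kept spot. The left map marks the 50 thymus spots (red) among the other kept spots (grey), the middle one gives log10 CPM of the 8-gene TCR, CD3 and recombination list, and the right one gives log10 UMIs per spot. The thymus spots lie in 1 area that is high for the list and low in UMIs.

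The thymus spots were shallow. They held 467458 UMIs in all, from 1692 to 44472 per spot with a median of 6722 (quartiles 4921 and 10298), while other kept spots held 105366706 UMIs with a median of 26995. The median number of genes detected was 3253.5 in thymus spots and 6146 in other spots. Mitochondrial transcripts made up 1.01% of UMIs in thymus spots (exact binomial interval 0.977 to 1.03) and 4.35% in other kept spots (4.348 to 4.356), and ribosomal protein genes 20.7% (20.6 to 20.9) and 15.2% (15.22 to 15.23). These values move with every comparison below, and their part in the results was not tested. In a spot, fewer cells of a type and less RNA per cell cannot be told apart. Between pairs of sections 24 to 2542 barcodes were shared, since slides carry the same set of grid barcodes.

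Across the transcriptome, UMIs were summed over the 50 thymus spots and over the other kept spots, and log2 ratios were taken with 1 CPM added to both. Of 10428 genes with a mean of the 2 CPM values of at least 10, 2460 (23.6%) were at least 2-fold higher in thymus spots and 2170 (20.8%) at least 2-fold lower, and the median log2 ratio over all of them was 0.21. TMM scaling, which fits the bulk of the genes, moves that median by −0.31 and gives 1623 higher and 2825 lower genes, and every log2 ratio below would be lower by about that much under it. A gene low enough in 1 group could pass the filter only by being at least 2-fold higher in the other. For such genes the 2-fold call was fixed by the filter, here and in the list counts below. The 25 highest genes outside the rule had log2 ratios from 5.16 to 5.89, and from 3.48 to 4.71 against only the 301 other kept spots whose depth lay within the quartiles of the thymus spots. They included thymocyte receptor, coreceptor and signalling genes, the transcription factors Tcf7 and Ikzf1, and Tbata, Prss16 and Ccl25 of thymic epithelium or stroma. General leukocyte genes such as Ptprcap and Mir142hg were also among them, as were the little-described Gm15340, Gm525, 1700097N02Rik and Cpsf4l.

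Trbc1 (ENSMUSG00000076490, GRCm38.p6 chromosome 6, 41538219 to 41539665), a constant segment of the TCR beta chain, had 1308, 2898 and 6198 CPM in the lowest, median and highest thymus spot. Trbc2, the other beta constant segment (chromosome 6, 41546730 to 41548181), had 1481, 2756 and 4951 CPM in the same order. Both beta segments had UMIs in all 50 thymus spots, and their near-identical coding sequences mean that the authors' counting could have split reads between them. Summed, Trbc1 stood at 2892 CPM in thymus spots and 53.2 CPM in other kept spots (log2 ratio 5.74), and Trbc2 at 2732 and 65.9 CPM (5.35). Trbc1 also had a UMI in 17.4% of spots over 6 grid steps away, where the median depth was 27420 UMIs, and the source of those UMIs was not tested.

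The other chains of the receptor followed at lower counts. Trac, the alpha constant segment, had 60 UMIs in 32 thymus spots, 128 against 4.53 CPM (log2 ratio 4.55). Ptcra, the preTCR alpha chain that pairs with a fresh beta chain, stood at 120 against 4.55 CPM (4.44). Cd3e and Cd247, signalling chains of the CD3 complex, had log2 ratios of 5.34 and 5.07, and Rag2, the partner of Rag1, 5.72. Dntt, which adds untemplated bases at receptor joints, had 3 UMIs in 3 thymus spots and was under the filter, so 7 of the 8 listed genes were compared and all 7 were at least 2-fold higher. Among them Rag2, Cd3e, Trac and Ptcra stood at 2.51 to 4.55 CPM in other kept spots and passed the filter only through the thymus spots. Their 2-fold call was thus fixed by the filter, and the count adds nothing to their levels.

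Gamma-delta receptor genes were present beside the alpha-beta ones. The delta constant segment Trdc had 103 UMIs in 37 thymus spots, with a median of 226 and a highest value of 1248 CPM per spot, and the gamma constant segments Tcrg-C1, Tcrg-C2 and Tcrg-C4 had 79, 36 and 20 UMIs. Their log2 ratios over other kept spots were 5.29, 4.92, 4.06 and 4.46. Cd163l1 (ENSMUSG00000025461, chromosome 7, 140197218 to 140231145), a scavenger receptor of gamma-delta T cells in mice, had 71 UMIs in 36 thymus spots and the highest log2 ratio of all compared genes outside the rule, 5.89. This rank depends on the added 1 CPM. Without it the ratio of Cd163l1 was 95.8 (71.5 to 127) and that of Cd4 was 103 (69.7 to 150). Sox13, a transcription factor of the gamma-delta lineage, had a log2 ratio of 2.32, and Maf, which had a UMI in 64.2% of the spots over 6 steps away, −1.01. Of the 13 entries 7 were compared, and 6 of the 7 were at least 2-fold higher. Among these Trdc and Cd163l1, at 4.65 and 1.58 CPM in other kept spots, passed the filter only through the thymus spots, which fixed their 2-fold call. Tcrg-C3 and the variable segments Trdv4, Tcrg-V4, Tcrg-V6 and Trgv2 had 0 UMIs in the thymus spots. In the spots 1 step away Trgv2 had 1 UMI and the others of these had 0. Whether transcripts of these segments are captured here at all was not tested.

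Coreceptors and the proximal signalling machinery were high as a block: 15 of 16 listed genes were at least 2-fold higher (median log2 ratio 4.67). Cd8b1, the beta chain of CD8, had 200 UMIs in 43 thymus spots and 428 against 8.35 CPM (5.52). Cd4 had 42 UMIs in 27 spots and 89.8 against 0.873 CPM (5.60). Lck, the kinase carried by both coreceptors, stood at 498 against 13.4 CPM (5.12), Lat, the adaptor that it helps to activate, at 700 against 16.3 CPM (5.34), and Zap70 at 113 against 3.68 CPM (4.61). Fyn, a related kinase with wide expression, was the exception at 59.9 against 72.3 CPM (−0.27). For the list as a whole the lowest, median and highest thymus spot had 1902, 3813 and 5916 CPM, and the other spots had a median of 143 CPM.

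Transcription factors of the T lineage were also high, with 13 of the 14 compared genes at least 2-fold higher and a median log2 ratio of 3.48. Tcf7, the factor that Notch signals switch on first, stood at 732 against 19.4 CPM (5.17), Ikzf1 (Ikaros) at 299 against 7.39 CPM (5.16) and Myb at 276 against 8.56 CPM (4.86). Bcl11b, which locks in T cell identity, had 3.38, and Satb1, a chromatin organiser of thymocytes, 4.09 with UMIs in 49 of the 50 spots. Gata3 was low in count, with 10 UMIs (2.08). Id3, an inhibitor of E proteins, stood at 171 against 168 CPM (0.02), and Zbtb7b and Runx3, which divide the CD4 from the CD8 lineage, had 2 and 7 UMIs and were under the filter.

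In the double positive list 7 of the 8 compared genes were at least 2-fold higher (median 3.54), among them Themis, which tunes receptor signals (4.67), Aqp11, a water channel (3.76), and Endou, a poly(U)-specific endoribonuclease (5.34). Il2ra, the interleukin 2 receptor alpha chain that appears before beta selection, had 46 UMIs and 98.4 against 4.72 CPM (4.12). Markers of final maturation were scarce: Foxp3, Ccr7, Nr4a3 and Egr2 had 0 UMIs, Cd69 had 4 and S1pr1, the exit receptor, stood at 8.56 against 23.97 CPM (−1.39). Of 6 compared genes of that list 2 were at least 2-fold higher, among them Ikzf2, which encodes the factor Helios, at 3.29. Itm2a dominated the sum of the list in other tissues, at 225 CPM in thymus spots against 887 CPM in other kept spots.

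Of 7 compared genes of the earliest progenitors Il2ra was the 1 that was at least 2-fold higher, and the list median of −1.33 turned to 0.082 with no filter on low values. Kit stood at 27.8 against 22.5 CPM (0.30), Lyl1 at 19.3 against 10.9 CPM (0.77), and Cd34, Cd44, Mef2c and Bcl11a were at least 2-fold lower. These 4 had UMIs in 34.5% to 77.1% of the spots over 6 steps away. In the Notch list the receptor Notch1 had 353 against 47.6 CPM (2.87) and the ligand Dll4, which cortical epithelium displays, 51.3 against 9.39 CPM (2.33). The remaining 7 compared Notch genes were not at least 2-fold higher. They included the targets Dtx1 (0.73), Hes1 (0.35) and Nrarp (−0.42), and the list median was 0.31.

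**Figure D2:**
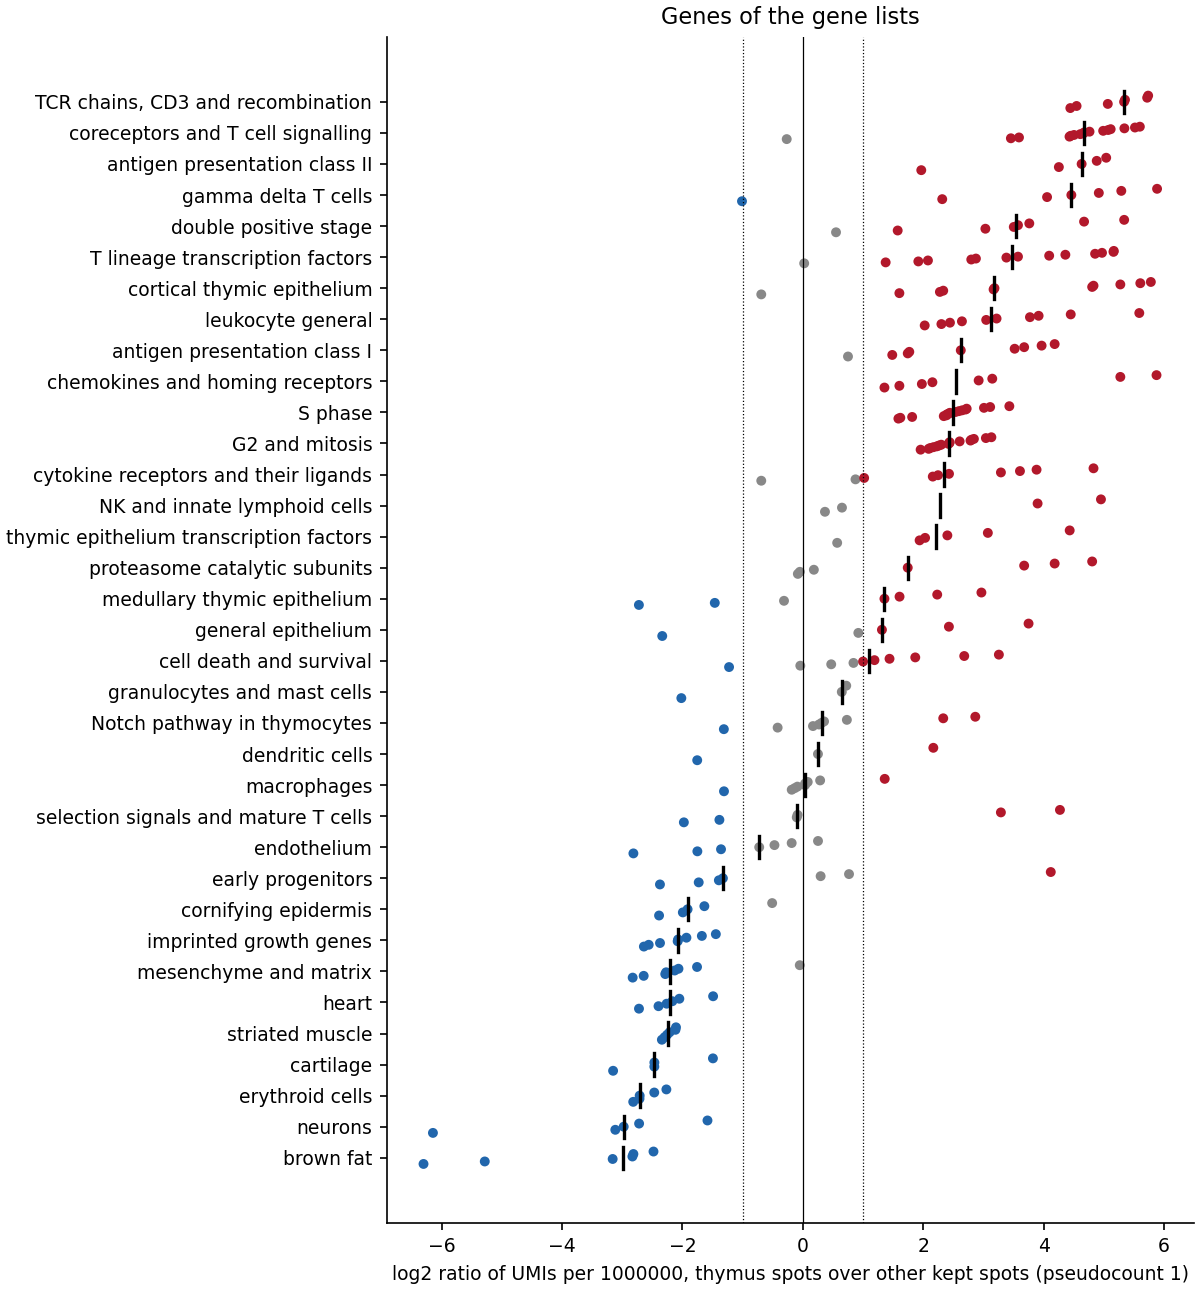
Log2 ratio of CPM in thymus spots over other kept spots (horizontal axis, 1 CPM added to both) for the compared genes of each list with at least 3 of them (vertical axis), each point a gene. Black bars are list medians, dotted lines mark 2-fold, and red and blue points are at least 2-fold higher and lower. Receptor, coreceptor and MHC class II lists lie near the top with medians from 4.63 to 5.34, and muscle, matrix and red cell lists lie below −2.

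Cortical epithelium was the second strong component. Of 12 listed genes 11 were compared and 10 were at least 2-fold higher (median log2 ratio 3.18), and the sum stood at 5367 CPM (5159 to 5582) in thymus spots against 430 CPM in other kept spots. Prss16 (ENSMUSG00000006179, GRCm38.p6 chromosome 13, 22002176 to 22009741), the thymus-specific serine protease, had 256, 1281 and 2499 CPM in the lowest, median and highest thymus spot. Tbata (chromosome 10, 61171964 to 61188841), a protein of thymic stroma, had UMIs in 49 of the 50 spots and stood at 779 against 13.2 CPM (5.78). Ctsl, the protease that trims peptides for MHC class II in the cortex, had UMIs in all 50 spots but also in 95.8% of the spots over 6 steps away, with 2169 against 238 CPM (3.18).

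The chemokine and its receptor were both present. Ccl25, made by thymic epithelium, stood at 509 against 12.2 CPM (5.28), and Ccr9, its receptor on thymocytes, at 201 against 2.44 CPM (5.88). Il7, the epithelial cytokine that keeps early thymocytes alive, had 31 UMIs and 66.3 against 1.37 CPM (4.83), and its receptor chain Il7r had 12 UMIs (3.88). In the same list Socs1, a brake on cytokine signals, had 3.61 and Stat5b 2.43, and 8 of 10 compared genes were at least 2-fold higher. Cxcl12 and Cxcr4, a further chemokine and receptor of the cortex, had 1.605 and 3.15. Kitl stood at 19.3 against 31.7 CPM (−0.69).

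Foxn1 is the transcription factor that builds and maintains thymic epithelium. It had 27 UMIs in 19 thymus spots and 57.8 CPM (38.1 to 84.0), against 1.72 CPM in other kept spots (4.43). The related patterning factors Pax1, Pax9 and Eya1 had 3.07, 1.94 and 2.03, and Trp63, which epithelial progenitors require, 2.40. Tbx1 and Hoxa3, which act in the pouch that forms the organ, had 1 and 2 UMIs. The core letters GACGC have been described as the DNA sequence that Foxn1 binds. They were searched on both strands (as GACGC and GCGTC, which can overlap by their last and first letters but do not in the windows printed) in RefSeq promoter windows of GRCm38.p6, 250 bases before to 50 bases after a transcript start. Of 12 cortical genes 9 had a window in that table, and 5 of the 9 (Psmb11, Ccl25, Cxcl12, Enpep and Kitl) held the letters, while 27.2% of all 32851 windows and 29.6% of all genes with a window did. Prss16, Il7 and Cd83 were not matched to a window. A match is a run of letters and not a shown binding site. The windows of Psmb11, Ccl25 and Tbata are shown because these genes were among the highest of the list and differ in the letters; capitals mark each match.
Psmb11 (chr14:54625060-54625359, plus strand): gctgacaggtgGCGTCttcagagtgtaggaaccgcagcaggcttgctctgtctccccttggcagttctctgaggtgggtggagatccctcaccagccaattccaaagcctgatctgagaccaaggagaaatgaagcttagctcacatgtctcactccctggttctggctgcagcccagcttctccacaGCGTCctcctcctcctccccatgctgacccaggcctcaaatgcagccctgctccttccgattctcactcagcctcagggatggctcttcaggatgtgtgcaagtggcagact
Ccl25, first start (chr8:4324960-4325259, plus strand): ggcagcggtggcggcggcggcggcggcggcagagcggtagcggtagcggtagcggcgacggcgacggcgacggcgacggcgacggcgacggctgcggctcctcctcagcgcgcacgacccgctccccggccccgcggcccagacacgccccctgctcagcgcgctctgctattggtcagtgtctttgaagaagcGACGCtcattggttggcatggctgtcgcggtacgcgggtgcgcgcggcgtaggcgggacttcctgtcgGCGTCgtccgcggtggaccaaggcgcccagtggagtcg
Ccl25, second start (chr8:4349338-4349637, plus strand): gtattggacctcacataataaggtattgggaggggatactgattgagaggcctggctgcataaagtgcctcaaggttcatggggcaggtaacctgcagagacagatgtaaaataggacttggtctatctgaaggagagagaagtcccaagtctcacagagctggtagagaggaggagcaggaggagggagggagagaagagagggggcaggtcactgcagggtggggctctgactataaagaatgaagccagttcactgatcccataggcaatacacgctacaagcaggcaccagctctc
Tbata (chr10:61171714-61172013, plus strand): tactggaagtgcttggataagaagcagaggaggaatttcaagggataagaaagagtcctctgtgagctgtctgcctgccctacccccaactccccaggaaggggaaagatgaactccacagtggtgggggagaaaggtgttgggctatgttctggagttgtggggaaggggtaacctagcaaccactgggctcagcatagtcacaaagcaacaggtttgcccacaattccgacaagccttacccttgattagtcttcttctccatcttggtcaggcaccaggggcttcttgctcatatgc

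Psmb11 and the first start of Ccl25 held 2 matches each, and the second start of Ccl25 and the window of Tbata held 0. The log2 ratio of Tbata was 5.78, beside 4.81 for Psmb11 and 5.28 for Ccl25. Foxn1's own window also held 0. The files count UMIs per gene and do not tell from which start a Ccl25 transcript came.

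Psmb11 encodes beta5t, the catalytic proteasome subunit of cortical epithelium that shapes the peptides shown to CD8 T cells. It had 94 UMIs in 36 thymus spots and 201 against 6.22 CPM (4.81). The immunoproteasome subunits Psmb8 and Psmb9 were high as well, at 380.8 against 19.997 CPM (4.18) and 87.7 against 5.93 CPM (3.68), and Psmb10 at 175 against 51.7 CPM (1.74). The constitutive catalytic subunits were near the level of the section: Psmb5 had 197 against 173 CPM (0.18), Psmb6 218 against 231 CPM (−0.08) and Psmb7 169 against 175 CPM (−0.05).

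Antigen presentation genes were high in both classes. All 5 compared MHC class II genes were at least 2-fold higher (median 4.63), with Cd74, the invariant chain, at 256, 746 and 1807 CPM in the lowest, median and highest thymus spot and UMIs in all 50 spots. H2-Ab1 stood at 424 against 16.1 CPM (4.63) and H2-Aa at 295 against 9.03 CPM (4.88), while Ciita, their master regulator, had 7 UMIs. In class I, 8 of 9 compared genes were at least 2-fold higher (median 2.62), and the peptide transporter genes Tap1 (3.52) and Tap2 (3.97) exceeded H2-K1 (2.62), H2-D1 (1.49) and B2m (1.77) in log2 ratio.

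Medullary epithelium left a faint trace. Aire, which drives the display of self antigens, had 7 UMIs in 7 thymus spots, and Fezf2, a second such factor, had 4, and both were under the filter. Krt5 and Krt14, keratins of the medulla and of other stratified epithelia, stood at 32.1 against 40.1 CPM (−0.31) and 10.7 against 31.2 CPM (−1.46). Krt17 was higher at 199 against 24.6 CPM (2.97) and Cldn4, a claudin of medullary cells, at 36.4 against 6.95 CPM (2.23). Ccl21a, the chemokine that guides cells to the medulla, is listed under 2 gene identifiers, which were summed, and had 33 UMIs (1.36). In all, 4 of 7 compared genes were at least 2-fold higher and 2 lower. The keratin pair of simple and cortical epithelium was high, with Krt8 at 468 against 86.3 CPM (2.43) and Krt18 at 635 against 46.3 CPM (3.75), whereas Krt19 was lower at 10.7 against 58.0 CPM (−2.34).

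Other blood cells were sought because a thymus can hold them. General leukocyte genes followed the thymocytes, with 10 of 10 at least 2-fold higher (median 3.13). Macrophage genes were at the level of the section: 1 of 9 was higher and 1 lower, the median was 0.04, and the sum stood at 349 CPM (297 to 407) against 355 CPM. For dendritic cells Xcr1, Clec9a, Siglech and Batf3 had 0 UMIs, Itgax had 1, Irf8, which other leukocytes share, had 14 (2.17), Zbtb46 had 6 (0.25) and Cst3, a gene of many cells, had 81 (−1.75). For B cells Cd79a, Ms4a1, Pax5 and Igll1 had 0 UMIs, Cd79b had 15 (3.01), Ebf1 had 5 (−1.44) and Vpreb1 had 1. At the floor of 3 counts, each count of 0 allows up to 6.42 CPM.

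Gzma, the protease granzyme A of cytotoxic and innate-like lymphocytes, had the highest log2 ratio of the natural killer list, of which 2 of 4 compared genes were at least 2-fold higher. It had 216 UMIs in 47 of the 50 thymus spots, with a median of 428 and a highest value of 1363 CPM per spot, and 462 against 13.9 CPM in sum (4.95). Nkg7, a granule protein, had 15 UMIs (3.90), and the adaptors Tyrobp and Fcer1g, which macrophages share, had 58 (0.65) and 31 (0.37). The defining genes were near 0, with 2 UMIs for Ncr1, 1 for Klrb1c, 3 for Klrd1 and 0 for Eomes. Gzma had a UMI in 7.03% of spots over 6 steps away.

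Genes of other tissues were low in the thymus spots against the section as a whole. Red cell genes stood at 9387 CPM (9111 to 9669) against 50806 CPM, with all 5 compared genes at least 2-fold lower (median −2.71). All 6 striated muscle genes were lower within a narrow range of −2.34 to −2.11, as were 6 of 6 heart, 6 of 6 brown fat and 5 of 5 neuron genes, 4 of 4 compared cartilage genes and 7 of 8 mesenchyme genes. Against the depth-matched other spots the heart genes Myl7 and Nppa turned to 0.014 and 1.06. Pdgfrb, a receptor of perivascular cells, was the exception among the mesenchyme genes at 36.4 against 37.7 CPM (−0.05), and of 7 endothelial genes 0 were at least 2-fold higher and 3 lower (median −0.72, from −2.81 for Lyve1 to 0.25 for Pecam1). The 15 lowest genes of the transcriptome had 0 UMIs in the thymus spots and were therefore bounded only, from Ucp1, the uncoupling protein of brown fat, at least 12.1-fold lower, to the neuropeptide gene Tac1, at least 6.95-fold lower. Elavl3, Chga and Ncan, genes of neurons and neuroendocrine cells, were among them.

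Genes of the cell cycle were uniformly high. All 16 S phase genes and all 16 genes of G2 and mitosis were at least 2-fold higher, with medians of 2.49 and 2.43 and ranges of 1.59 to 3.43 and 1.96 to 3.13. The S phase list stood at 2120, 3799 and 6087 CPM in the lowest, median and highest thymus spot, and the median of the other spots was 576 CPM. Mki67, the standard marker of dividing cells, had 734 against 82.8 CPM (3.13), Top2a, which untangles chromosomes, 509 against 60.9 CPM (3.04), Uhrf1, which copies DNA methylation, 372 against 33.6 CPM (3.43) and Pcna, the replication clamp, 693 against 128 CPM (2.42). Of the other kept spots 17 reached the thymus median of the S phase list and 14 that of the G2 and mitosis list, all within 3 steps of a thymus spot. The lowest thymus value was reached by 69 other spots for S phase, 3 of them over 6 steps away, and by 189 for G2 and mitosis, 78 of them over 6 steps away.

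Levels were then followed outward in grid steps from the nearest thymus spot. The TCR, CD3 and recombination list stood at 6439 CPM in thymus spots and at 3324, 1638, 1287, 571 and 26.5 CPM at 1, 2, 3, 4 to 6 and over 6 steps. The cortical epithelium list ran through 5367, 3015, 1504, 1228, 720 and 347 CPM in the same order. The spots 1 step away numbered 70 and had a median of 12445 UMIs, with TCR list values from 862 to 10933 CPM, so that they overlapped the thymus spots. The 50 spots held 17.01% (16.46 to 17.57) of the section's UMIs for the TCR list, and the spots 1 step away held 25.4% (24.8 to 26.1). Most UMIs of the list in the section therefore lay outside the 50 spots.

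**Figure D3:**
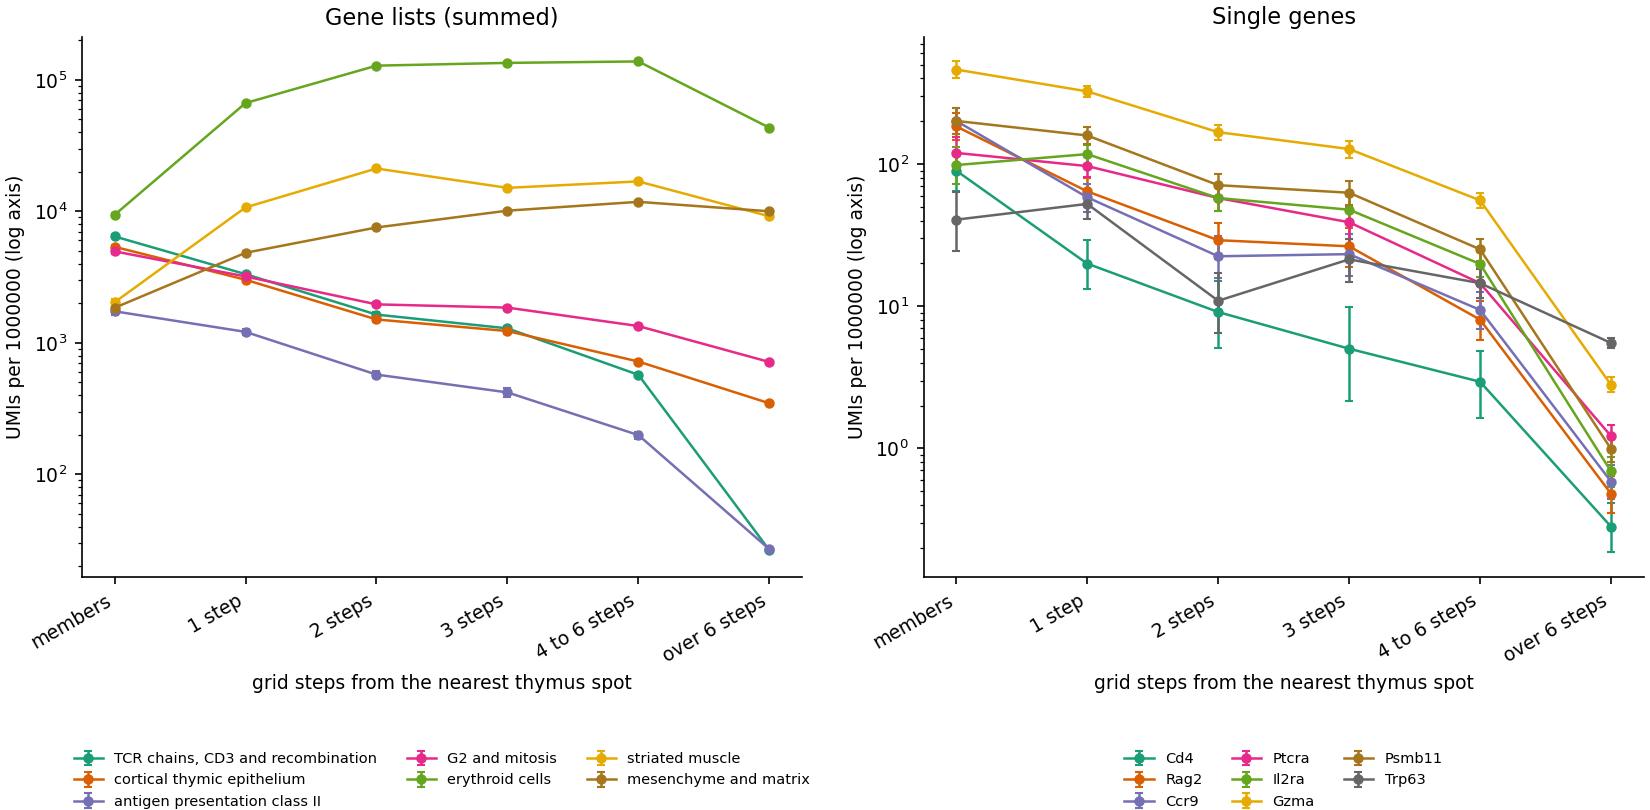
CPM on a log axis (vertical) by grid steps from the nearest thymus spot (horizontal), for summed gene lists on the left and single genes on the right, with exact 95% Poisson intervals as bars. TCR list values run from 6439 CPM in thymus spots to 26.5 CPM over 6 steps away, red cell and muscle lists run the other way over the first steps, and Cd4 stands at 89.8 and 19.9 CPM in thymus spots and at 1 step, beside 98.4 and 117 CPM for Il2ra.

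Red cell and muscle genes ran in the opposite direction. Red cell genes stood at 9387 CPM in thymus spots and at 66537 and 128125 CPM at 1 and 2 steps, then at 43224 CPM over 6 steps away. Striated muscle genes stood at 2030 CPM in thymus spots and at 10700 and 21159 CPM at 1 and 2 steps. Both lists were thus higher in the spots 1 and 2 steps away than over 6 steps away. Other lists that were low against the section were not low against the spots 1 step away: neuron genes stood at 148 CPM in thymus spots and 105 CPM at 1 step (ratio 1.41, 1.04 to 1.89), brown fat genes at 543 and 535 CPM (1.02, 0.877 to 1.17) and cartilage genes at 163 and 138 CPM (1.18, 0.889 to 1.54).

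Of 150 list genes at least 2-fold higher in thymus spots than in other kept spots, 106 were above the level of the spots 1 step away beyond counting error, 44 were not, and 0 were below it. These genes were chosen as high in the thymus spots, and the spots 1 step away scored lower by the rule. A lean towards the thymus spots was therefore built into this count and the median that follows. A share over all genes was not taken. The median ratio of thymus spots over spots 1 step away was 1.595. Cd4 had a ratio of 4.50 (2.71 to 7.60), Ccr9 3.45 (2.53 to 4.71), Trac 3.22 (2.19 to 4.74) and Rag2 2.86 (2.10 to 3.90). At the other end Il2ra had 0.84 (0.590 to 1.17), Tcrg-C2 0.86 (0.577 to 1.26), Ptcra 1.24 (0.889 to 1.70), Psmb11 1.27 (0.983 to 1.62) and Trp63 0.78 (0.441 to 1.30). The rule selected on Cd8a and Rag1, so this order describes its choice, and the difference between the genes was not tested.

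Over the 50 spots, which share 1 section and differ in depth, the TCR list and the coreceptor list had a Pearson r of 0.49 and a Spearman rho of 0.54 (n = 50), and coreceptors and cortical epithelium had 0.35 and 0.39. TCR and cortical epithelium values had 0.19 and 0.13, and the TCR list and G2 and mitosis −0.03 and −0.08. The coreceptor list and UMIs per spot had −0.38 and −0.42. These are weak relations in sparse counts and are given as such.

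Between the 2 larger groups of touching spots the intervals of the main thymic lists included 1. Group 1 (34 spots, median 5828 UMIs) and group 2 (14 spots, median 10013 UMIs) stood at 6640 and 6366 CPM for the TCR list, a ratio of 1.04 (0.967 to 1.12), and at 5531 and 5419 CPM for cortical epithelium, 1.02 (0.940 to 1.11). S phase genes had 3901 and 3858 CPM. They differed in some lists of surrounding tissue: red cell genes stood at 5414 CPM in group 1 and 12743 CPM in group 2 (ratio 0.42, 0.397 to 0.455), and striated muscle genes at 2994 and 1232 CPM (2.43, 2.10 to 2.82). Heart genes ran opposite to striated muscle genes (0.72, 0.584 to 0.889). Brown fat (1.89, 1.43 to 2.51), mesenchyme (1.31, 1.13 to 1.52) and imprinted growth genes (1.32, 1.12 to 1.57) were higher in group 1. The intervals of cartilage, neuron and endothelial genes included 1. One spot of group 1 held 22869 CPM of striated muscle genes, and without it the muscle ratio was 1.98 (1.70 to 2.31). The spot of group 2 with the highest red cell level held 44472 UMIs and 32717 CPM of these genes, and without it group 2 stood at 7165 CPM and the red cell ratio was 0.76 (0.696 to 0.820). Both spots were left out after the values were seen. Of 47 single genes compared in this way 5 had an interval that left out 1. Besides Acta1 of muscle and the globin Hbb-bs these were Ccr9, with 144 CPM in group 1 and 299 CPM in group 2 (0.48, 0.303 to 0.748), Mki67, with 835 and 633 CPM (1.32, 1.05 to 1.66), and Krt15, with 76.3 and 24.5 CPM (3.11, 1.10 to 10.8). Without the same spot of group 2 the ratio of Krt15 was 2.43 (0.861 to 8.43), and its interval included 1. The 47 intervals were not adjusted for the number of genes, so some could leave out 1 through counting error alone. With all spots the lower limits of Mki67 (1.05) and Krt15 (1.10) lay close to 1. The G2 and mitosis list, to which Mki67 belongs, had 4974 CPM in group 1 and 4913 CPM in group 2 (1.01, 0.929 to 1.10). Top2a of the same list had a ratio of 0.94 (0.715 to 1.24). A share over all genes was not taken between the groups.

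**Figure D4:**
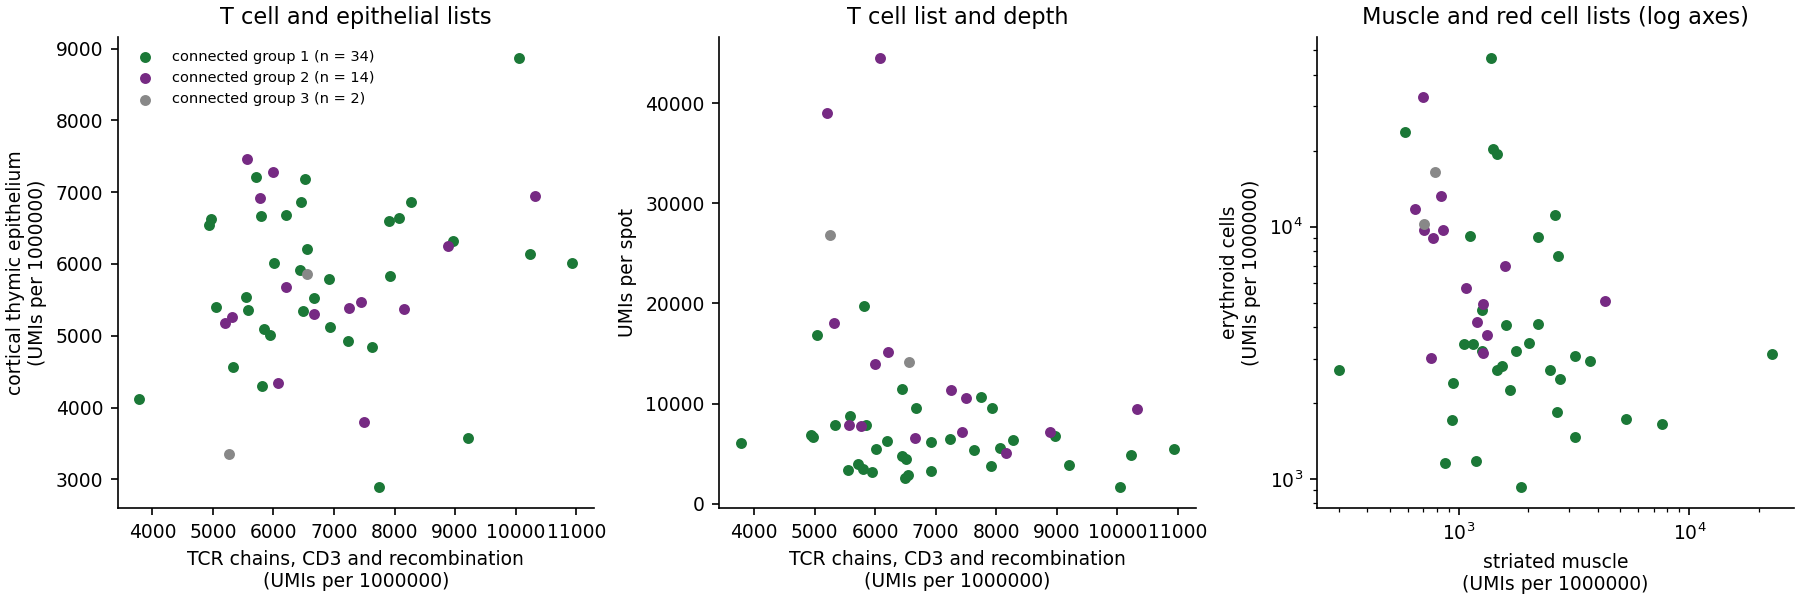
Each point is 1 thymus spot, coloured by group of touching spots (34, 14 and 2 spots). The panels set the summed CPM of the TCR list against that of cortical epithelium, the TCR list against UMIs per spot, and striated muscle against red cell genes on log axes. The groups overlap in the first panel, and the third shows 1 spot of group 1 at 22869 CPM for muscle and 1 spot of group 2 at 32717 CPM for red cell genes.

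The thymus spots were set beside other regions of the section chosen in the same way. The 50 highest spots by Krt5, Krt14, Krt15 and Dsp served as stratified epithelium (median 17219 UMIs), since such epithelia share keratins and Foxn1 with the thymus. Foxn1 stood at 57.8 CPM in thymus spots and 9.87 CPM (4.73 to 18.2) in stratified epithelium, a ratio of 5.85 (2.75 to 13.6), and Pax1 at 143 and 40.5 CPM (3.54, 2.37 to 5.36). Krt18 was higher in thymus spots (635 against 137 CPM, 4.63), Krt8 lower (468 against 558 CPM, 0.84, 0.716 to 0.984), and Krt17 lower as well (199 against 439 CPM, 0.45). Epcam and Cdh1, general epithelial adhesion genes, were lower too, at 62.0 against 150 CPM and 32.1 against 189 CPM, and Krt19 stood at 10.7 against 731 CPM. Against this background of 10494 genes, 20% were at least 2-fold higher in thymus spots and 20% lower, with a median log2 ratio of 0.11.

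Cell cycle genes were higher in thymus spots than in either region. In S phase 15 of 16 genes and in G2 and mitosis 16 of 16 were at least 2-fold higher than in stratified epithelium, with sums of 3872 against 896 CPM and 4957 against 1179 CPM. The 50 highest spots by Sox2, Pax6, Hes5 and Fabp7, called neural progenitor spots after these genes (median 45956 UMIs), gave 404 and 329 CPM for the same lists, and 16 of 16 genes of each list were at least 2-fold higher in thymus spots, where 20% of all 10936 genes compared were higher and 27.8% lower. Mki67 stood at 734 CPM in thymus spots, 145 CPM in stratified epithelium and 23.4 CPM in the neural spots. The neural spots were below the 639 CPM that all other kept spots had for S phase genes, and G2 and mitosis genes gave the same order against 813 CPM. They also held 2772 CPM of neuron genes, against 1166 CPM in all other kept spots, so the values do not bear out a dividing progenitor tissue.

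**Figure D5:**
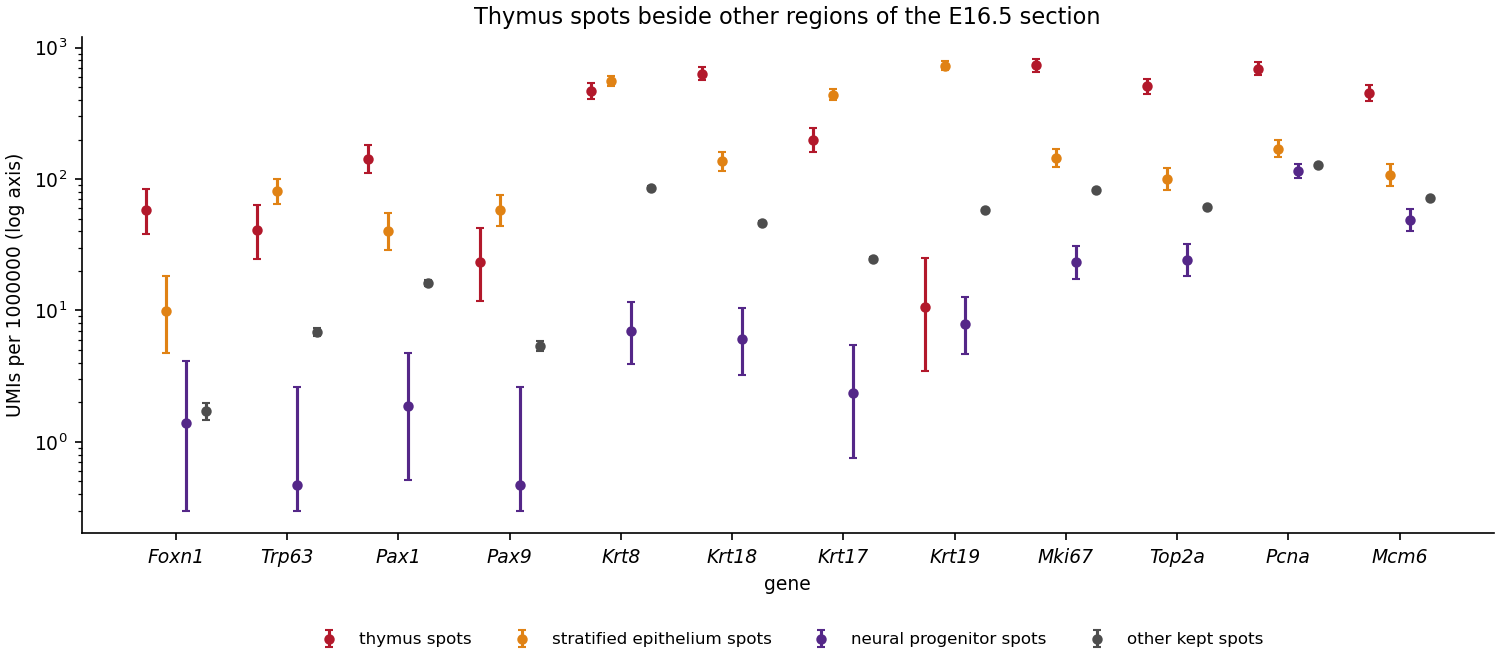
CPM on a log axis (vertical) of 12 genes (horizontal) in the 50 thymus spots, the 50 stratified epithelium spots, the 50 neural progenitor spots and all other kept spots, with exact 95% Poisson intervals. The 4 cell cycle genes on the right are highest in thymus spots, and Krt19 is highest in stratified epithelium.

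The same genes were then summed over every kept spot of each section. The TCR, CD3 and recombination list stood at 10.2 CPM (9.55 to 10.8) over all kept spots at E13.5, 167 CPM (165 to 170) at E16.5 and 3.34 ± 0.105 CPM (SD, n = 2) at P0. Prss16 stood at 2.93 CPM at E13.5, 29.7 CPM at E16.5 and 0.409 ± 0.386 CPM (SD, n = 2) at P0, and Psmb11 at 0.659 CPM, 7.08 CPM and 0 UMIs in either P0 section. Foxn1 was ordered otherwise, at 0.608 CPM at E13.5, 1.97 CPM at E16.5 and 3.38 ± 0.225 CPM (SD, n = 2) at P0. The cortical epithelium list, which holds genes of many tissues, stood at 379 CPM, 452 CPM and 424 ± 46.7 CPM (SD, n = 2). The P0 sections are esophagus alone and the embryo sections differ in the organs they cut, so stage and dissection cannot be told apart.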

How the data were processed

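The deposited files held raw counts made by the authors with Space Ranger 2.0.0, per the file headers, and mm10 was the build, per the submitters' processing notes: a matrix of molecules for 32285 genes, together with slide positions. Spots over tissue with at least 500 UMIs were kept. UMIs were summed over thymus spots and over other kept spots, scaled to CPM, and compared as log2 ratios with 1 CPM added, for genes with a mean of the 2 CPM of at least 10. Intervals are exact 95% Poisson, conditional binomial or Clopper-Pearson intervals (scipy 1.17.1). TMM factors came from edgeR 4.0.16, and the ratio step was tested on simulated data. Depth per spot is given above, and 3 counts set the floor for a 0. Genes named are the 25 highest and 15 lowest by log2 ratio outside the rule, and members of 42 lists (354 genes). The spots, lists and comparison regions were chosen with earlier results of these data known. Symbols were matched to RefSeq (GRCm38.p6) for 26335 genes. A planned comparison of inner with outer thymus spots had no value, as 0 spots had 6 thymus neighbours. The 2 larger groups of touching spots were compared in its place, chosen after the data were seen. Alternatives covered pseudocount, filter, depth, number of spots, score, compared spots and scaling. Tissue images were not used here. Some genes of the lists are not reported here by name.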

Additional observations from a re-analysis of the deposited data

How the results depend on the processing

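E16.5 has 1 section, so depth and the choice of 1 section limit every value. No paired analysis was possible because no groups of samples were tested against each other. Counts of genes at least 2-fold higher and lower stayed within 1.5 times of the reported ones except for 4870 lower genes with no filter on low values, 926 higher and 591 lower with a mean CPM of at least 50 (fewer genes compared), and 1623 higher with TMM scaling. The share of thymus spots in the largest touching group moved most: 38% with at least 2000 UMIs per spot, 33.3% with 30 spots, 100% with 80, and 46%, 82%, 42% and 92% with Cd3d, Cd8a, Rag1 or Cd3g left out of the score. The cause was not tested. The median of the early progenitor list changed sign to 0.082 with no filter and 1.36 with a mean CPM of at least 50, where 2 genes remained. Against 301 other spots within the quartiles of the thymus spots' depth, an alternative chosen after seeing the data, the 25 highest genes had log2 ratios from 3.48 to 4.71 (median 3.99), and the heart genes Myl7 (0.014) and Nppa (1.06) changed sign. Of 246 named or listed genes past 2-fold, 217 stayed past it in all 16 alternatives. The alternatives to the filter do not change the ratio of a gene, so no gene could fall under 2-fold through them. In the depth-matched comparison 18 were under 2-fold, and with 30 or with 80 thymus spots 8 each. Over these alternatives list medians moved by more than 0.5 on the log2 scale 93 times, changed sign 2 times and did neither 558 times. Of those 301 spots 19 lay within 3 steps of a thymus spot. Thinned to 2000 UMIs, also chosen after seeing the data, Rag2 had a UMI in 34.7% of thymus spots and 0.510% of other spots, and Trbc1 in 100% and 6.71%. The P0 level of the TCR list was 3.26 to 3.41 CPM with either section left out.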

Other observations

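Imprinted growth genes, which are high in many fetal tissues, were low throughout the thymus spots. All 8 were at least 2-fold lower than in other kept spots (median log2 ratio −2.08, range −2.64 to −1.44), with the growth factor gene Igf2 at 175 against 1040 CPM and the long RNA H19 at 496 against 2090 CPM. Their sum stood at 1391 CPM in thymus spots and at 4310 and 7361 CPM at 1 and 2 grid steps.

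Genes of cell death and survival were mixed, with 6 of 10 at least 2-fold higher and 1 lower (median 1.10). Pmaip1, which encodes the death factor Noxa, had 13 UMIs and 27.8 against 2.01 CPM (3.26), and Fas, a death receptor, 51.3 against 7.16 CPM (2.68). Bcl2 and Bcl2l1, survival genes of thymocytes, had 1.44 and 1.19, and Bbc3 stood at 8.56 against 21.3 CPM (−1.23).

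Some of the 25 highest genes have no role stated here. Gm15340 had 57 UMIs in 32 thymus spots (5.55), Gm525 112 in 38 (5.24), 1700097N02Rik 98 in 40 (5.24) and Cpsf4l 50 in 26 (5.19). Each had a UMI in 0.693% to 4.32% of the spots over 6 steps away.

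Thyroid genes, at 19.3 CPM in thymus spots, reached 1236 CPM in the spots 4 to 6 steps away and stood at 53.3 CPM beyond them. The keratin gene Krt15 had 55.6 CPM in thymus spots and 896 CPM at 4 to 6 steps.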
